A study of Mus musculus with 18 samples.

Results

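The neutrophil granule and identity genes are 38 genes among the 50600 of the count table, and all 38 were found in it. They comprise 29 genes of the mature neutrophil and 9 genes of granule formation, of which 4 encode primary granule proteins and 5 belong to the secondary granule program. The genes were chosen because neutrophil genes rose most after 2 doses of free CDN2, so the levels in that comparison, and in every other comparison that uses the same tumors, are given as a description with no test. RNA was sequenced from whole B16F10 tumors, a mouse melanoma line grown under the skin of the flank of female C57BL/6 mice, taken 24 h after the last intratumoral (IT) injection. With 1 dose, the groups were PBS, unloaded extracellular vesicles (EVs) from HEK293 cells, exoCDN2 (the same kind of EVs loaded with 0.1 µg of the STING agonist CDN2), CDN2 (20 µg) and CDN2 (100 µg). With 2 doses given 3 days apart, the groups were PBS, exoCDN2 (0.1 µg), CDN2 (20 µg) and free CDN2 for which the labels give no amount. Each group held 2 tumors, so the 9 groups made 18 tumors. CDN2 is named CL656 in the labels, and it is a synthetic 3′-3′ cyclic dinucleotide. For PBS, EVs, exoCDN2 and CDN2 (20 µg) the study calls the tumors of a group biological replicates, sequenced as representatives of a larger number of replicate tumors, and all p-values measure the spread between the sequenced tumors.

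Neutrophils are short-lived granulocytes that mature in the bone marrow and enter inflamed tissue from the blood. Their granules are filled in sequence: primary (azurophil) granule proteins such as myeloperoxidase and neutrophil elastase are transcribed in promyelocytes, secondary (specific) granule proteins such as lactoferrin in later myelocytes, and both sets of transcripts are switched off before the cell leaves the marrow. The mature cell keeps transcribing the calprotectin subunits, chemoattractant receptors, metalloproteinases and cytokine decoys. Transcripts of the mature set are therefore found in circulating and tissue neutrophils, while transcripts of the primary granule mark precursors. Some genes of the mature set, Acod1 and Hdc among them, are also transcribed by other cells, so their levels alone do not identify neutrophils. In whole tumors, fewer cells of a type and less RNA per cell cannot be told apart.

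The sequences before the starts of 6 of these genes are shown because they hold letters that differed between the gene sets. Promoter windows came from RefSeq (GRCm38.p6) and matched 33 of the 38 genes by symbol; Mmp9, Hcar2, Trem3, Cebpe and Wfdc21 had no entry. The search covered the 250 bases before each RefSeq start, on both strands, for 5 patterns picked after the genes were known. The C/EBP-type letters TTGCNNAA occurred in 10 of the 33 windows (30.3%) and in 9.56% of all 32851 windows. They were present before 3 of the 4 secondary granule genes with a window (Ngp, Ltf and Lcn2) and before none of the 4 primary granule genes. The PU.1-type letters GAGGAAGT occurred in 6 of 33 windows (18.2%) and in 2.44% of all windows. They lay before 3 of the 4 primary granule genes (Elane, Mpo and Prtn3), before no secondary granule gene, and before S100a8, Ly6g and Mmp8. Of the 3 looser patterns, TTNCNNAA, whose matches include those of TTGCNNAA, was present in 21 of 33 windows against 36.8% of all, GAGGAA, whose matches include those of GAGGAAGT, in 19 of 33 against 23.3%, and TATAAA in 9 of 33 against 12.4%. By set, GAGGAA lay before 4 of 4 primary, 2 of 4 secondary and 13 of 25 mature genes with a window. TTNCNNAA lay before 0 of 4, 3 of 4 and 18 of 25 in that order. A match says only that these letters stand in the window. The parts of 6 windows that lie before the first annotated base of the gene are printed 5′ to 3′ on the gene's strand, with TTGCNNAA and GAGGAAGT matches of either strand in capitals. They are S100a8 (chr3:90668821-90668977, plus strand), S100a9 (chr3:90695722-90695971, minus strand), Ngp (chr9:110419558-110419746, plus strand), Ltf (chr9:111019042-111019270, plus strand), Elane (chr10:79886062-79886246, plus strand) and Mpo (chr11:87793534-87793580, plus strand).
S100a8: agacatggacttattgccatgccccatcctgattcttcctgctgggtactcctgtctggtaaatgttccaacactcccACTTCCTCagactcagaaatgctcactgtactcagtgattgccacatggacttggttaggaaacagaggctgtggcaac
S100a9: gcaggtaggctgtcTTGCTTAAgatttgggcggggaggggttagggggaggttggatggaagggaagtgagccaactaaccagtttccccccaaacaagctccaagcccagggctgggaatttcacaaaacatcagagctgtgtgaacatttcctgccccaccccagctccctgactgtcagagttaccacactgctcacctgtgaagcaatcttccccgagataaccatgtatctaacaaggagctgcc
Ngp: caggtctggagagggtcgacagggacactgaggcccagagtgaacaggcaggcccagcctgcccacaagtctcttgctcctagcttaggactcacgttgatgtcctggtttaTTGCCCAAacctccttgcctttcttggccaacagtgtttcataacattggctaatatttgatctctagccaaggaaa
Ltf: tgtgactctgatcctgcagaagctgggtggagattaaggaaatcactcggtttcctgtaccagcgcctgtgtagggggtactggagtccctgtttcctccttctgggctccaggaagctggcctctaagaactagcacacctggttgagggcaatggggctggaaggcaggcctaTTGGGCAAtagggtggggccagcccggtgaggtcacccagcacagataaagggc
Elane: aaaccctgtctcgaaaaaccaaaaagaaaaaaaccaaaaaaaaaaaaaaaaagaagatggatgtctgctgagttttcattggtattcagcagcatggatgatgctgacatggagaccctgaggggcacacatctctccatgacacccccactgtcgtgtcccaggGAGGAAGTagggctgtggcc
Mpo: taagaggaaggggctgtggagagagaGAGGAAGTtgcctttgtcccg
S100a9 carries its match 236 bases before the RefSeq start and Ltf 75 bases before it. In S100a8, Elane and Mpo the GAGGAAGT letters begin 172, 85 and 224 bases before that start. S100a8 and S100a9 are neighbours on chromosome 3 with 22.6 kb between them, and Prtn3 and Elane on chromosome 10 with 3.07 kb.

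The total expected count lay between 21608895 and 65983630 per tumor, and the lowest total belonged to tumor 1 of CDN2 (20 µg) at 2 doses. The 2 tumors of that group stood farthest apart, with a correlation of log2 levels of 0.944 across genes and 28.2% of genes over 2-fold apart, against 0.975 or higher in every other group. No pair of tumors of a group agreed within sampling noise. The 2 tumors labelled as 2 doses of free CDN2 without an amount had a summed level of the 38 genes of 28.8 and 42.2 CPM, between the 2-dose PBS tumors (15.4 and 13.3 CPM) and the 2-dose exoCDN2 tumors (371 and 155 CPM), and they entered only 2 comparisons, which a fit of all 18 tumors gave. All levels are given as CPM, a count divided by the tumor's TMM-scaled library size. Of the 38 genes, 35 passed the filter on low counts; Elane, Mpo and Ctsg did not and are given by their counts. Of those 35, 8 passed with fewer than 2 tumors at the cut outside CDN2 (20 µg) at 2 doses: Ly6g, Cxcr1, Mrgpra2a, Stfa2, Prtn3, Camp, Ngp and Ltf.

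**Figure D1:**
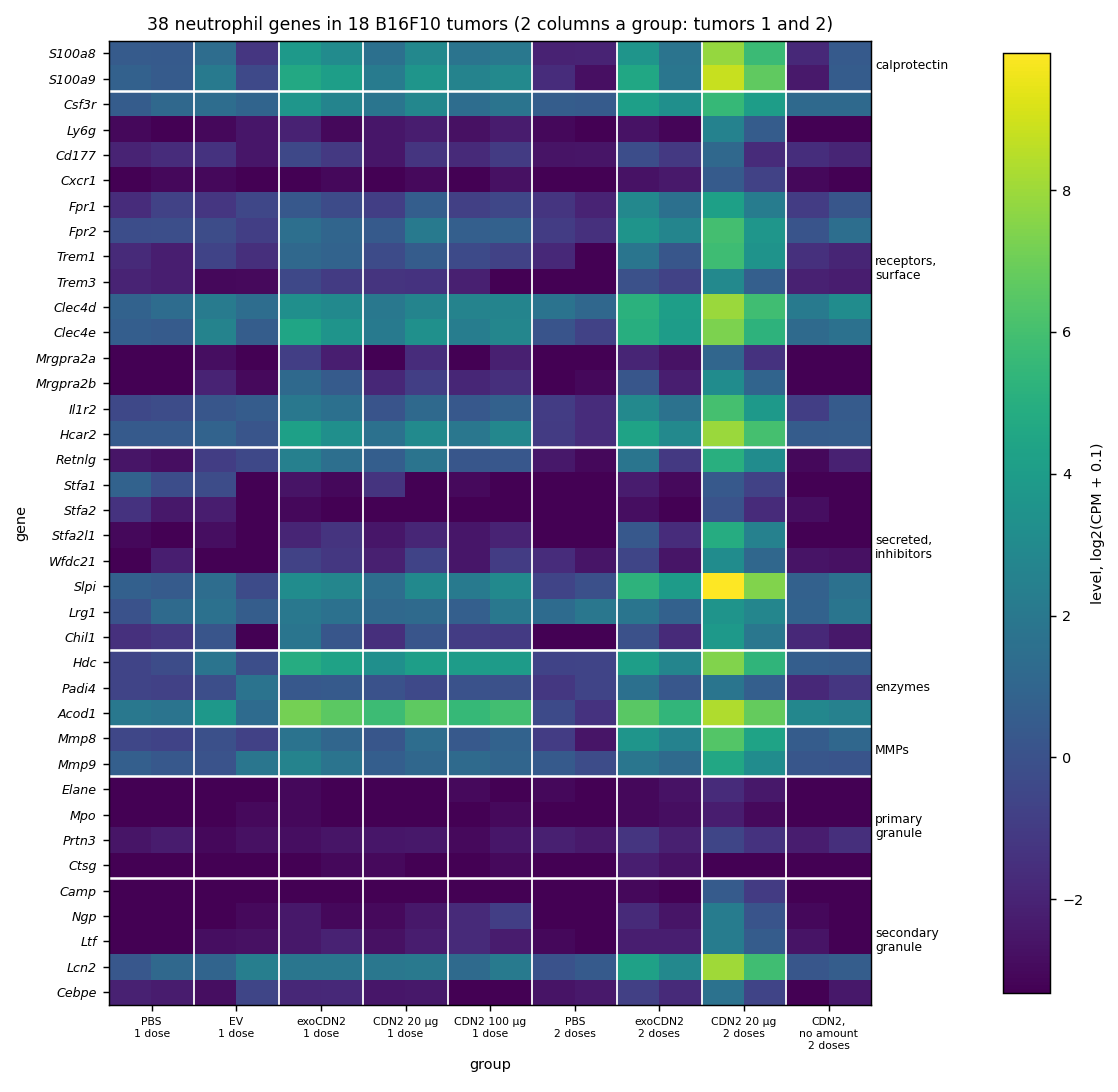
Level of each of the 38 genes as log2(CPM + 0.1), by color, in the 18 tumors, with 2 columns for tumors 1 and 2 of each group and rows grouped by role. The columns of CDN2 (20 µg) at 2 doses are brightest, and the primary granule rows stay near the bottom of the scale in every group.

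S100a8 and S100a9 encode the subunits of calprotectin, the most abundant cytosolic protein complex of neutrophils. S100a8 stood at 232 and 53.0 CPM in the tumors given 2 doses of CDN2 (20 µg), at 11.8 and 3.31 CPM with 2 doses of exoCDN2, and at 0.143 and 0.154 CPM with 2 doses of PBS. After 1 dose it stood at 13.7 and 8.28 CPM with exoCDN2, 2.87 and 7.15 CPM with CDN2 (20 µg), 3.34 and 3.88 CPM with CDN2 (100 µg), 2.59 and 0.325 CPM with EVs, and 1.31 and 1.26 CPM with PBS. Both exoCDN2 tumors were therefore above all other 1-dose tumors, and the EV tumors lay on either side of PBS. S100a9 followed S100a8: it stood at 450.0 and 104 CPM after 2 doses of CDN2 (20 µg), at 23.6 and 3.65 CPM after 2 doses of exoCDN2, and at 0.225 and 0.0439 CPM after 2 doses of PBS. After 1 dose S100a9 stood at 25.3 and 17.0 CPM with exoCDN2, 4.41 and 11.8 CPM with CDN2 (20 µg), 5.95 and 7.41 CPM with CDN2 (100 µg), 4.36 and 0.651 CPM with EVs, and 1.64 and 1.32 CPM with PBS. The ratio of S100a9 to S100a8 was 1.94 and 1.97 in the tumors given 2 doses of CDN2 (20 µg), and it was 1.05 to 2.06 over all tumors given 1 dose.

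Among the 14 receptors and surface proteins, Csf3r encodes the receptor for the granulocyte growth factor G-CSF. Csf3r stood at 47.6 and 16.3 CPM after 2 doses of CDN2 (20 µg), 17.7 and 9.53 CPM after 2 doses of exoCDN2 and 1.39 and 1.32 CPM after 2 doses of PBS. After 1 dose it stood at 12.3 and 6.33 CPM with exoCDN2, 3.44 and 6.95 CPM with CDN2 (20 µg), 2.56 and 3.36 CPM with CDN2 (100 µg), 2.59 and 1.83 CPM with EVs and 1.34 and 2.12 CPM with PBS. Ly6g, the surface antigen used to identify mouse neutrophils, behaved otherwise. Ly6g had 111 and 52 counts (5.88 and 1.36 CPM) after 2 doses of CDN2 (20 µg) and at most 7 counts in any other tumor, including 3 and 1 after 2 doses of exoCDN2. Cxcr1, a receptor for CXC chemokines, had 25 and 20 counts after 2 doses of CDN2 (20 µg), 3 and 6 after 2 doses of exoCDN2, and at most 2 elsewhere. For both genes the depth allows no statement on the order of the other groups.

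The formyl peptide receptor gene Fpr1 stood at 18.4 and 4.62 CPM after 2 doses of CDN2 (20 µg), 7.17 and 2.85 CPM after 2 doses of exoCDN2 and 0.306 and 0.154 CPM after 2 doses of PBS. Fpr1 after 1 dose stood at 1.17 and 0.713 CPM with exoCDN2, 0.449 and 1.45 CPM with CDN2 (20 µg), 0.463 and 0.618 CPM with CDN2 (100 µg), 0.324 and 0.601 CPM with EVs and 0.219 and 0.520 CPM with PBS. The groups given 2 doses of CDN2 (20 µg) or exoCDN2 overlapped for Fpr1 and lay above all tumors given 1 dose. The tumors given 2 doses of free CDN2 of no labelled amount, at 0.408 and 1.05 CPM, did not. Clec4d, a C-type lectin that recognizes mycobacterial glycolipid, stood at 246 and 58.6 CPM after 2 doses of CDN2 (20 µg), 35.3 and 16.9 CPM after 2 doses of exoCDN2 and 3.21 and 2.02 CPM after 2 doses of PBS. Clec4d after 1 dose stood at 9.56 and 7.71 CPM with exoCDN2, 3.81 and 6.29 CPM with CDN2 (20 µg), 6.10 and 6.25 CPM with CDN2 (100 µg), 4.49 and 2.58 CPM with EVs and 1.71 and 2.52 CPM with PBS. Its highest 1-dose levels were those of the exoCDN2 tumors and its lowest that of a PBS tumor. Il1r2, a decoy receptor that binds interleukin-1 without signalling, stood at 65.9 and 13.7 CPM after 2 doses of CDN2 (20 µg), 7.57 and 3.11 CPM after 2 doses of exoCDN2 and 0.408 and 0.220 CPM after 2 doses of PBS. Il1r2 after 1 dose stood at 3.87 and 2.83 CPM with exoCDN2, 0.997 and 2.20 CPM with CDN2 (20 µg), 1.17 and 1.61 CPM with CDN2 (100 µg), 1.06 and 1.33 CPM with EVs and 0.635 and 0.760 CPM with PBS. Both exoCDN2 tumors were the highest of these. The other surface genes (Cd177, Fpr2, Trem1, Trem3, Clec4e, Mrgpra2a, Mrgpra2b and Hcar2) all had their highest level in tumor 1 of CDN2 (20 µg) at 2 doses, from 1.96 CPM for Mrgpra2a to 249 CPM for Hcar2, a hydroxycarboxylic acid receptor. Mrgpra2a and Mrgpra2b are neighbouring, similar genes on chromosome 7, and Stfa1, Stfa2 and Stfa2l1 are similar stefin A genes, so the split of reads within each family is uncertain.

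Of the 8 genes for secreted proteins and inhibitors, Retnlg, a resistin-like protein of neutrophils, stood at 33.1 and 8.52 CPM after 2 doses of CDN2 (20 µg), 3.44 and 0.355 CPM after 2 doses of exoCDN2 and 0.0817 and 0.022 CPM after 2 doses of PBS. After 1 dose Retnlg stood at 5.34 and 2.81 CPM with exoCDN2, 1.45 and 3.28 CPM with CDN2 (20 µg), 1.05 and 1.11 CPM with CDN2 (100 µg), 0.432 and 0.626 CPM with EVs and 0.0657 and 0.0400 CPM with PBS. Each treated group, EVs included, lay above the 1-dose PBS tumors, whose 2 values rest on 3 and 2 counts. Slpi, an inhibitor of neutrophil serine proteases, reached 982 and 174 CPM after 2 doses of CDN2 (20 µg), 37.7 and 15.2 CPM after 2 doses of exoCDN2, and at most 8.64 CPM in any other tumor. Stfa1 and Stfa2, stefin A cysteine protease inhibitors, had their highest 1-dose counts in a PBS tumor: Stfa1 had 77 and 39 counts with PBS against 3 and 1 with exoCDN2, 12 and 0 with CDN2 (20 µg) and 1 and 0 with CDN2 (100 µg). Neither gene passed the test in any of those comparisons. Keratinocyte markers moved with them, although 0 of 9 passed the test in those comparisons: their summed level was 117 to 207 CPM in the 1-dose PBS tumors and 0.368 to 9.74 CPM in the tumors given 1 dose of exoCDN2 or CDN2, and their part in these values was not tested. Stfa2l1 had 551 and 215 counts after 2 doses of CDN2 (20 µg) and 0 in both 2-dose PBS tumors, which made it at least 274-fold higher against a floor of 3 counts in each tumor. Chil1, a chitinase-like protein, stood at 14.6 and 3.72 CPM after 2 doses of CDN2 (20 µg) and at most at 3.52 CPM elsewhere, and Wfdc21, a whey acidic protein family member, at 8.68 and 2.05 CPM against at most 0.590 CPM elsewhere. Lrg1, a plasma glycoprotein, stood at 11.4 and 6.66 CPM after 2 doses of CDN2 (20 µg) and at 0.898 to 3.93 CPM elsewhere.

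**Figure D2:**
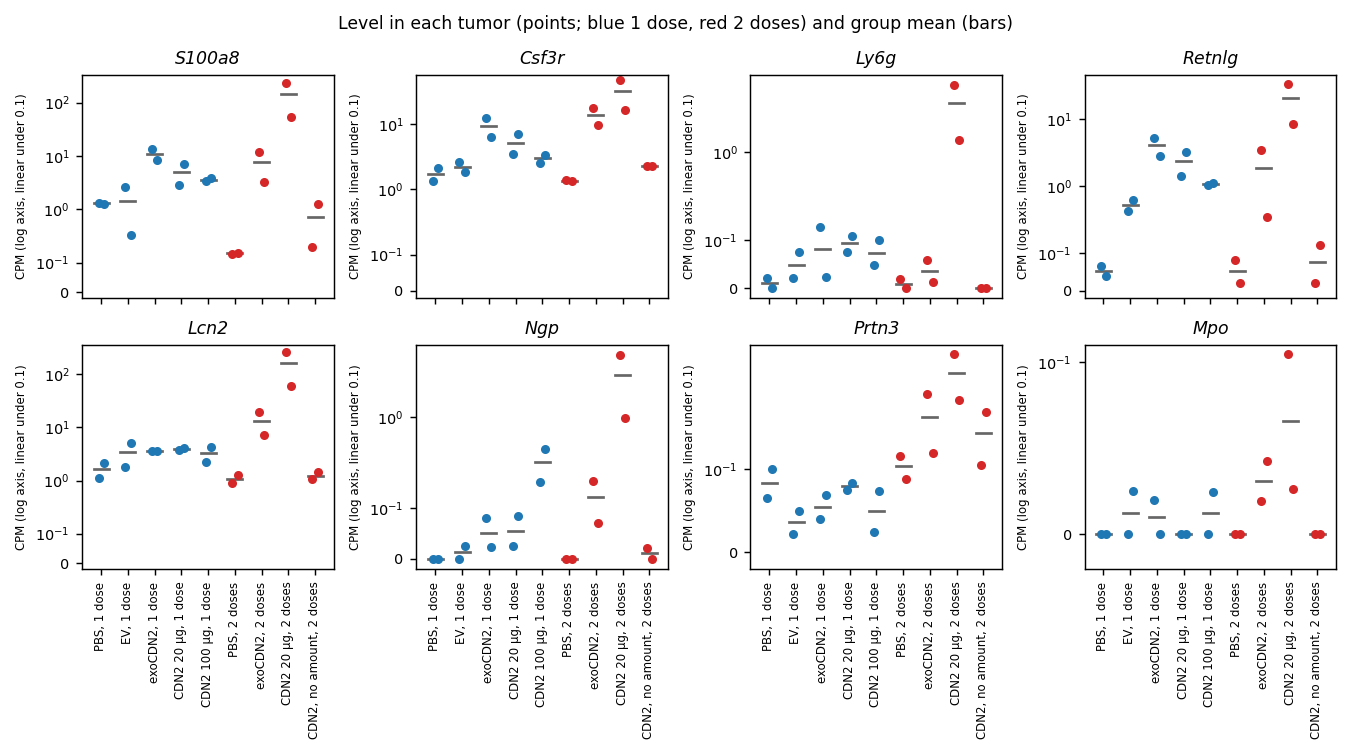
Level in CPM of 4 mature neutrophil genes (top row), 2 secondary granule genes (Lcn2, Ngp) and 2 primary granule genes (Prtn3, Mpo), with 1 point a tumor, blue for 1 dose and red for 2 doses, and a bar at the group mean, on a log axis that is linear under 0.1. S100a8, Csf3r and Retnlg stood above PBS in several groups, Ly6g and Ngp stood highest with 2 doses of CDN2 (20 µg), and Mpo nowhere exceeded 0.106 CPM.

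Among the enzymes, Acod1 makes itaconate in activated myeloid cells. Acod1 stood at 142 and 96.6 CPM after 1 dose of exoCDN2, 54.1 and 99.9 CPM after CDN2 (20 µg), 46.5 and 59.7 CPM after CDN2 (100 µg), 13.4 and 2.43 CPM after EVs and 3.88 and 3.36 CPM after PBS. After 2 doses it stood at 330.0 and 113 CPM with CDN2 (20 µg), 94.3 and 42.6 CPM with exoCDN2 and 0.694 and 0.286 CPM with PBS. Hdc, which makes histamine and is also a mast cell and basophil gene, stood at 29.6 and 20.1 CPM after 1 dose of exoCDN2 against 0.570 and 0.760 CPM after PBS, and Acod1 and Hdc were above both PBS tumors in every tumor given a labelled amount of CDN2. Padi4, which citrullinates histones when neutrophils release chromatin, ranged only from 0.193 to 3.49 CPM over all tumors. The collagenase gene Mmp8 stood at 84.5 and 20.7 CPM after 2 doses of CDN2 (20 µg), 12.0 and 5.85 CPM after 2 doses of exoCDN2 and 0.408 and 0.0659 CPM after 2 doses of PBS. Mmp8 after 1 dose stood at 3.26 and 1.96 CPM with exoCDN2, 1.07 and 2.59 CPM with CDN2 (20 µg), 1.20 and 1.73 CPM with CDN2 (100 µg), 0.843 and 0.501 CPM with EVs and 0.614 and 0.540 CPM with PBS. The exoCDN2 and CDN2 (20 µg) tumors overlapped there. The gelatinase gene Mmp9 stood at 24.5 and 8.52 CPM after 2 doses of CDN2 (20 µg), 3.64 and 2.27 CPM after 2 doses of exoCDN2 and 1.27 and 0.747 CPM after 2 doses of PBS. Mmp9 after 1 dose stood at 6.02 and 3.29 CPM with exoCDN2, 1.45 and 2.09 CPM with CDN2 (20 µg), 2.34 and 1.93 CPM with CDN2 (100 µg), 0.951 and 3.58 CPM with EVs and 1.53 and 1.14 CPM with PBS. Tumor 2 of the EV group thus lay within the exoCDN2 range for Mmp9.

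The secondary granule genes split into Lcn2 and the rest. Lcn2, the siderophore-binding lipocalin that epithelial cells and macrophages also make, stood at 266 and 59.2 CPM after 2 doses of CDN2 (20 µg), 19.3 and 7.25 CPM after 2 doses of exoCDN2 and 0.898 and 1.27 CPM after 2 doses of PBS. After 1 dose Lcn2 stood at 3.62 and 3.61 CPM with exoCDN2, 3.74 and 4.03 CPM with CDN2 (20 µg), 2.27 and 4.35 CPM with CDN2 (100 µg), 1.82 and 5.03 CPM with EVs and 1.12 and 2.12 CPM with PBS, so that the EV tumors overlapped every other 1-dose group. Camp, the precursor of the antimicrobial peptide cathelicidin, had 25 and 15 counts after 2 doses of CDN2 (20 µg) and 1 count in all the other tumors together. Ngp, the neutrophilic granule protein, had 89 and 37 counts after 2 doses of CDN2 (20 µg), 10 and 5 after 2 doses of exoCDN2, 8 and 18 after 1 dose of CDN2 (100 µg) and 0 in all PBS tumors. Ltf (lactoferrin) had 87 and 51 counts after 2 doses of CDN2 (20 µg) and 0 to 8 in every other tumor. Cebpe, the transcription factor that drives the secondary granule program, had 58 and 21 counts (3.07 and 0.551 CPM) after 2 doses of CDN2 (20 µg), 24 and 14 after 2 doses of exoCDN2, and 23 in tumor 2 of the EV group. Below these stood all remaining tumors, with 0 to 9 counts of Cebpe.

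The primary granule genes were barely detected at this depth. Elane (neutrophil elastase) had 4 and 3 counts after 2 doses of CDN2 (20 µg), 1 and 4 after 2 doses of exoCDN2, and at most 1 in any other tumor. Mpo (myeloperoxidase) had 2 and 1 counts after 2 doses of CDN2 (20 µg), 1 and 3 after 2 doses of exoCDN2, and at most 1 elsewhere. Ctsg (cathepsin G) had 0 counts in both tumors given 2 doses of CDN2 (20 µg), where 3 counts, the limit that a count of 0 allows, equal 0.159 and 0.0787 CPM, and 6 and 4 counts after 2 doses of exoCDN2. Prtn3 (proteinase 3) was the only primary granule gene with counts in every tumor: 11 and 11 after 2 doses of CDN2 (20 µg), 16 and 9 after 2 doses of exoCDN2, 6 and 4 after 2 doses of PBS and 1 to 5 after 1 dose. In CPM, Prtn3 stood at 0.582 and 0.288 after 2 doses of CDN2 (20 µg) and at 0.122 and 0.0879 after 2 doses of PBS. The limit covers counting error only.

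Levels per length of the mature and secondary granule genes overlapped within the group given 2 doses of CDN2 (20 µg). There the mean level was 531 CPM per kb of exon for S100a9, 490.0 for Slpi, 205 for S100a8 and 61.9 for Lcn2, which ranked 7th of the 38. It was 2.32 CPM per kb for Ngp, 1.46 for Cebpe, 1.13 for Camp and 0.861 for Ltf. The lower mature genes spanned these levels, with Chil1 at 3.26, Stfa1 and Stfa2 at 1.23 each and Mrgpra2a at 0.906. Below all of these stood Cxcr1 (0.620), Padi4 (0.516) and Cd177 (0.410). The primary granule genes stood at 0.251 for Prtn3, 0.148 for Elane and 0.0193 for Mpo. After 2 doses of exoCDN2, S100a9 and Acod1 each stood at 26.1 CPM per kb, Slpi at 22.4 and Lcn2 at 5.05. After 1 dose of exoCDN2, Acod1 stood at 45.5 CPM per kb and S100a9 at 40.5.

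Summed over the 29 mature neutrophil genes, the level was 3310 and 768 CPM in the tumors given 2 doses of CDN2 (20 µg), 148 to 350.0 CPM with 2 doses of exoCDN2, and 11.9 to 14.3 CPM with 2 doses of PBS. After 1 dose it was 208 to 320.0 CPM with exoCDN2, 99.9 to 198 CPM with CDN2 (20 µg), 105 to 133 CPM with CDN2 (100 µg), 23.9 to 52.3 CPM with EVs and 22.8 to 23.6 CPM with PBS. Acod1 alone gave 142 and 96.6 CPM of the 1-dose exoCDN2 sums, 54.1 and 99.9 CPM with CDN2 (20 µg) and 46.5 and 59.7 CPM with CDN2 (100 µg). Slpi gave 982 and 174 CPM of the sums after 2 doses of CDN2 (20 µg). The 9 granule genes summed to 280.0 and 62.8 CPM after 2 doses of CDN2 (20 µg), 7.92 to 20.5 CPM after 2 doses of exoCDN2 and 1.12 to 1.45 CPM after 2 doses of PBS. After 1 dose the granule sum was 4.05 CPM in both exoCDN2 tumors and overlapped between all treated 1-dose groups. Lcn2 gave 3.62 and 3.61 CPM of those exoCDN2 sums. Granule genes other than Lcn2 made up 0.407% and 0.439% of the summed level of all 38 genes after 2 doses of CDN2 (20 µg). Like shares were found after 2 doses of exoCDN2 (0.344% and 0.429%) and 1 dose of CDN2 (100 µg) (0.407% and 0.482%). The share was 0.130% to 0.207% after 1 dose of exoCDN2 and 0.240% and 0.179% after 1 dose of CDN2 (20 µg). It was 0.199% and 2.45% with EVs, and 0.672% and 0.762% with CDN2 of no labelled amount. In the PBS tumors, where all sums are low, that share was 0.770% to 1.46%. The 2 tumors given 2 doses of CDN2 (20 µg) differed in amount more than in proportion: all 33 genes with at least 10 counts in both were higher in tumor 1, by a median ratio of 4.19, from 1.71 for Lrg1 to 6.79 for Mrgpra2a. Tumor 1 of exoCDN2 at 2 doses exceeded tumor 2 in 24 of 24 such genes, by a median ratio of 2.45.

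**Figure D3:**
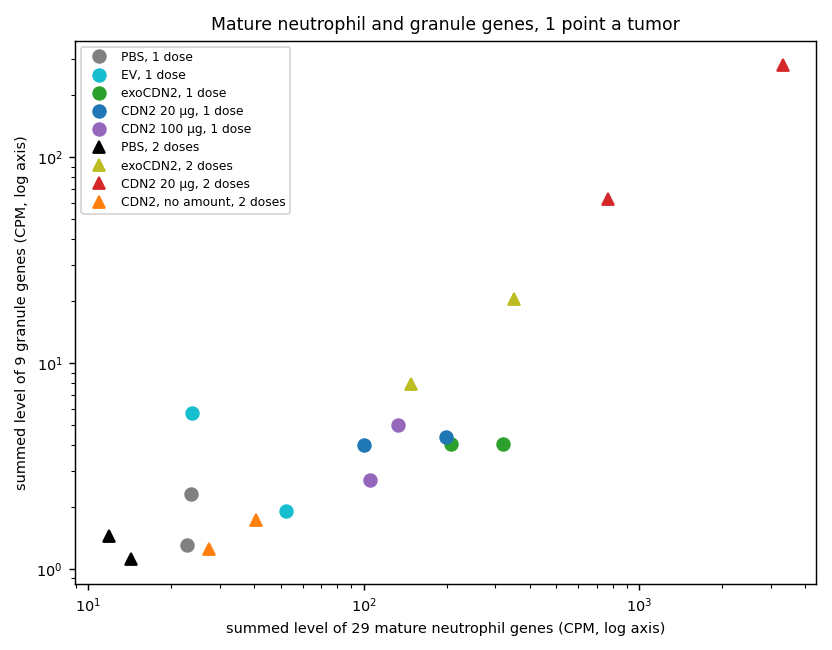
Summed CPM of the 29 mature neutrophil genes against summed CPM of the 9 granule genes, both on log axes, with 1 point a tumor, circles for 1 dose and triangles for 2 doses. The 1-dose exoCDN2 tumors have mature sums of 208 and 320.0 CPM, like those of 2-dose exoCDN2, but granule sums of 4.05 CPM against 7.92 and 20.5 CPM. Single genes weigh heavily in these sums. Acod1 held 142 and 96.6 CPM of the mature sum in tumors 1 and 2 of 1-dose exoCDN2. Lcn2 held 3.62 and 3.61 CPM of the granule sum there, and 19.3 and 7.25 CPM after 2 doses.

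The tested question was whether these genes differed from controls after 1 dose, in tumors the choice of genes did not use. Calls required a ratio over 2 together with an adjusted p below 0.05 (edgeR, quasi-likelihood; Benjamini-Hochberg over all 16927 genes). After exoCDN2, 7 genes were higher than with PBS and none lower, of 35 tested, where 2.62% of all genes were called. All 7 belong to the mature neutrophil list: Csf3r, Clec4e, Mrgpra2b, Hcar2, Retnlg, Hdc and Acod1. Not all of these are confined to neutrophils, and Ly6g had 7 and 1 counts in these exoCDN2 tumors. Which cells gave the 7 was not tested. Hdc rose by 5.21 ± 0.83 (log2 ± SE, adjusted p = 0.0039) and Acod1 by 5.04 ± 0.81 (adjusted p = 0.0041). Retnlg rose by 6.20 ± 1.22 (adjusted p = 0.015), Hcar2 by 3.49 ± 0.75 (adjusted p = 0.025) and Clec4e, a lectin that senses mycobacterial glycolipid and cell damage, by 3.61 ± 0.82 (adjusted p = 0.032). Mrgpra2b had 110 and 57 counts against 0 and 0, which made it at least 28.1-fold higher (edgeR adjusted p = 0.025). S100a8 (log2 difference 3.09 ± 0.90, edgeR adjusted p = 0.096) and S100a9 (3.83 ± 1.04, edgeR adjusted p = 0.073) did not pass. Among the granule genes, Lcn2 differed by 1.15 ± 0.73 (edgeR adjusted p = 0.50) and did not pass. The other granule genes had 0 to 9 counts a tumor in these groups, too few for the test to show a change, so granule and mature genes cannot be compared by their calls here. Over the 27 genes that reached the filter's cut in 2 or more tumors outside CDN2 (20 µg) at 2 doses, which include the 7, the median log2 difference was 2.42, against -0.024 over all genes. With tumor 1 or tumor 2 of PBS left out no gene was called, and with tumor 1 of exoCDN2 left out 2 were.

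After 1 dose of CDN2 (20 µg), Acod1 (4.41 ± 0.79, edgeR adjusted p = 0.0078), Hdc (4.32 ± 0.81, edgeR adjusted p = 0.010) and Retnlg (5.42 ± 1.23, edgeR adjusted p = 0.028) were higher than with PBS and none was lower, beside 3.14% of all genes called. After CDN2 (100 µg), Hdc (4.56 ± 0.81, edgeR adjusted p = 0.011) and Acod1 (3.88 ± 0.77, edgeR adjusted p = 0.018) were higher, beside 2.44% of all genes. For CDN2 (20 µg), no gene was called with 1 PBS tumor left out, whichever it was, or without tumor 2 of the treated group. For CDN2 (100 µg), none was called with 1 PBS tumor left out and 1 with either treated tumor left out. With unloaded EVs 0 of 35 genes passed, beside 0% of all genes, and DESeq2 called 0. An unadjusted p under 0.05 was found for 3 (Padi4, Retnlg and Ltf), beside 540 of all 16927 genes. Against EVs, exoCDN2 tumors had 3 higher genes, beside 2.95% of all genes: Acod1 by 3.90 ± 0.76 (edgeR adjusted p = 0.013), Hdc by 3.56 ± 0.74 (edgeR adjusted p = 0.020) and Hcar2 by 3.32 ± 0.75 (edgeR adjusted p = 0.030). None of them was called without tumor 2 of the EV group or without tumor 1 of exoCDN2.

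**Figure D4:**
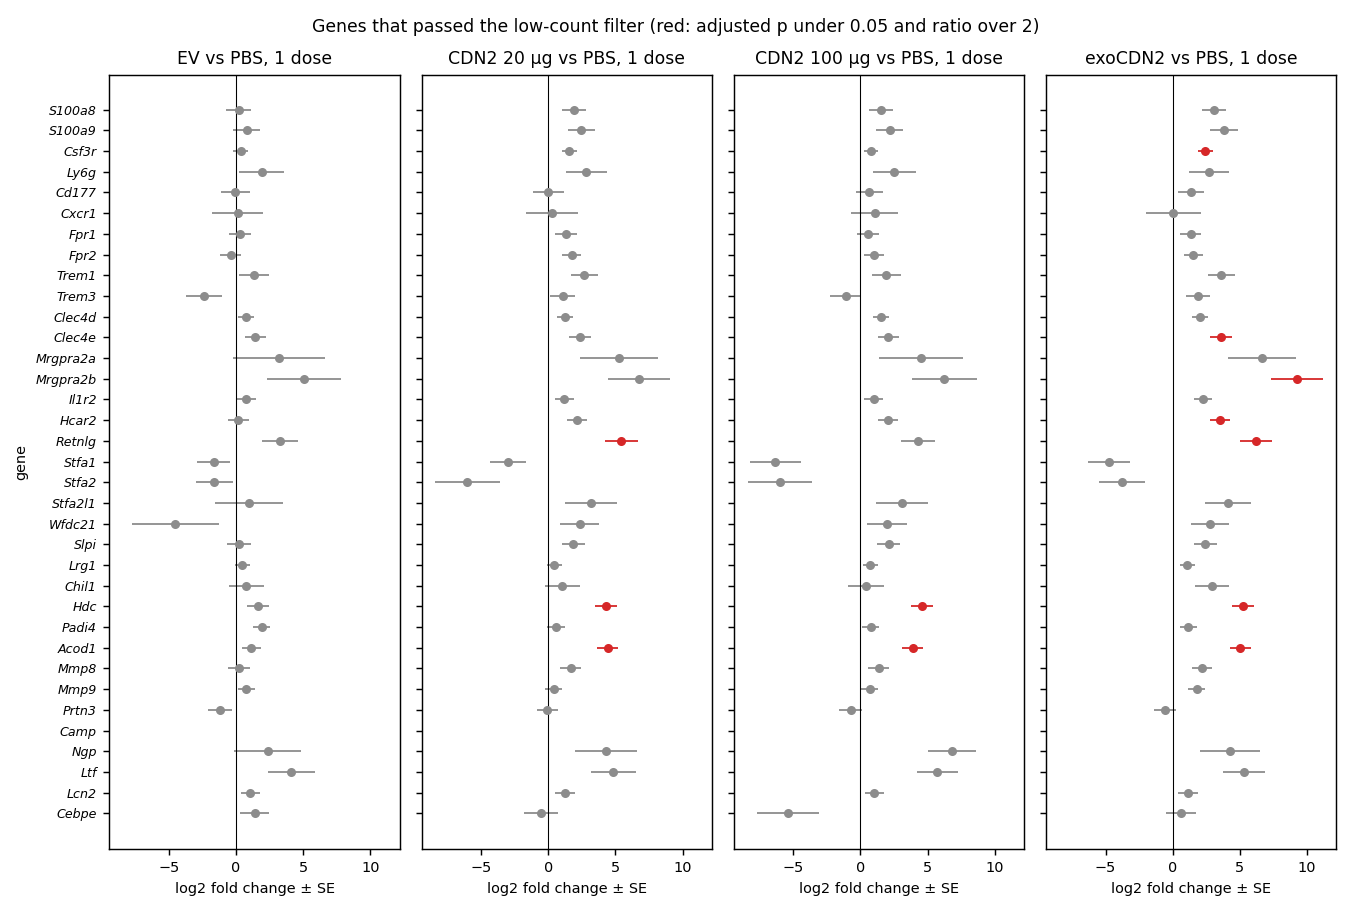
Log2 fold change ± SE against 1-dose PBS tumors for the genes that passed the low-count filter, in 4 panels for EVs, CDN2 (20 µg), CDN2 (100 µg) and exoCDN2; red points passed the test, and Camp is left out where both groups were at 0. The 7 red points of exoCDN2 belong to the mature neutrophil list, Hdc and Acod1 are red with each form of CDN2, and no point is red with EVs.

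The forms of CDN2 were given at unlike amounts, 0.1 µg in EVs against 20 µg or 100 µg free, so their values stand side by side. Between 1 dose of exoCDN2 and 1 dose of CDN2 (20 µg), 0 of 35 genes passed by edgeR or DESeq2, beside 0.608% of all genes by edgeR. Only 2 (Mrgpra2b and Mmp9) had an unadjusted p under 0.05, beside 3300 of all 16927 genes. In 16 of 35 genes both exoCDN2 tumors exceeded both CDN2 (20 µg) tumors, and in 2 the reverse held. With 2 tumors a group such a lack of overlap is frequent. The share over all genes is not given here, so nothing is read from these counts. Between CDN2 (100 µg) and CDN2 (20 µg), 0 of 35 genes passed by either tool, beside 0.455% of all genes by edgeR. None had an unadjusted p under 0.05, beside 2797 of all 16927 genes. The median log2 difference over the same 27 genes was -0.31 there. Between 2 doses and 1 dose of exoCDN2, 0 of 35 genes passed with edgeR, beside 7.44% of all genes. With DESeq2 3 passed, and its share over all genes is not given here. An unadjusted p under 0.05 was found for 7, a smaller share than the 4687 of all 16927 genes, so nothing is read from that count. The 7 were all higher after 2 doses and were led by Fpr1 (log2 difference 2.40 ± 0.74, edgeR adjusted p = 0.054) and Fpr2 (1.95 ± 0.68, edgeR adjusted p = 0.082). Dose number and any difference in day of handling cannot be told apart in that comparison.

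After 2 doses the values describe the tumors that led to the choice of these genes. That CDN2 (20 µg) tumors were past the same ratio and adjusted p against PBS for all 35 genes follows from how the genes were chosen and filtered, and nothing is read from it (30.6% of all genes were). The log2 differences ran from 1.61 for Lrg1 and 2.02 for Prtn3 to 11.03 for S100a9 among genes with counts in PBS. exoCDN2 tumors were over the threshold against the same PBS tumors for 20 of 35 genes, where 11.3% of all genes were. These PBS tumors also took part in the choice. Of these 20, 19 belong to the mature neutrophil list and the granule gene is Lcn2 (3.60 ± 0.77). Camp, Ngp, Ltf and Prtn3 had 0 to 16 counts in each of these exoCDN2 tumors. Granule and mature genes can therefore not be compared by these calls. Against CDN2 (20 µg), exoCDN2 tumors at 2 doses were lower past the threshold for 26 genes, where 19.4% of all genes were called, a count that was 9 without tumor 1 of CDN2 (20 µg) and 6 without tumor 2 of exoCDN2. Ly6g and Camp had 3 or fewer counts in each of these exoCDN2 tumors, so no fold is given for them. S100a9 differed by -4.44 ± 1.01 and Slpi by -4.54 ± 0.85, while Padi4 differed by -0.37 ± 0.61 and Csf3r by -1.31 ± 0.52. Between 2 doses and 1 dose of CDN2 (20 µg), 30 genes were higher past the threshold, where 20.8% of all genes were called. Of the 27 genes that reached the filter's cut in 2 or more tumors outside that 2-dose group, 23 were higher there. Of the same 27, 20 were lower with exoCDN2 than with CDN2 (20 µg) at 2 doses. Both comparisons use tumors that led to the choice of the genes, so nothing is read from these counts. Between 2 doses and 1 dose of PBS, 0 of 35 genes were past the threshold with edgeR, where 1.10% of all genes were called. DESeq2 called 2, and its share over all genes is not given here. The 2-dose PBS tumors took part in the choice of the genes, so nothing is read from this comparison.

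The tumors given 2 doses of free CDN2 without a labelled amount lay between 2-dose PBS and 2-dose exoCDN2 tumors in the summed level of the 29 mature genes, with 27.5 and 40.5 CPM against 14.3 and 11.9 CPM for PBS. Acod1 stood at 6.94 and 5.63 CPM there against 0.694 and 0.286 CPM with PBS. Clec4d stood at 4.10 and 8.74 CPM against 3.21 and 2.02 CPM, and Csf3r at 2.25 CPM in both tumors against 1.39 and 1.32 CPM. In 15 of 35 genes, among them these 3 and Fpr2, Clec4e and Mmp8, both tumors exceeded both PBS tumors, and in 2 the reverse held. With 2 tumors a group such a lack of overlap is frequent. Its share over all genes is not given here, so nothing is read from the numbers of genes without overlap. Retnlg (0.0215 and 0.134 CPM) and Lcn2 (1.05 and 1.42 CPM) overlapped with PBS, and Ly6g had no count. Against 2 doses of PBS, 0 of 35 genes were over the threshold with edgeR, where 0.959% of the 17110 genes of that fit were. With DESeq2 3 were, and its share over all genes is not given here. These PBS tumors took part in the choice of the genes, so nothing is read from those counts. Against 2 doses of exoCDN2, 18 genes were lower and none higher, where 6.38% of all genes were called. They included Csf3r (-2.59 ± 0.53, edgeR adjusted p = 0.0094), Acod1 (-3.44 ± 0.70, edgeR adjusted p = 0.0098), Hcar2 (-3.34 ± 0.70, edgeR adjusted p = 0.011), Lcn2 (-3.42 ± 0.72, edgeR adjusted p = 0.011), Hdc (-3.06 ± 0.70, edgeR adjusted p = 0.017) and Padi4 (-2.95 ± 0.68, edgeR adjusted p = 0.018). By role, these were both calprotectin genes, 8 of 14 surface genes, 3 of 8 secreted proteins, 3 of 3 enzymes, 1 of 2 metalloproteinases and 1 of 5 secondary granule genes. The count was 0 without tumor 1 of exoCDN2, 3 without tumor 1 of the group with no amount and 0 without its tumor 2. Macrophage and monocyte markers were lower there in 2 of 10, with a summed level of 287 to 413 CPM against 546 to 834 CPM, and their part in these values was not tested.

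Other neutrophil genes and the signals that bring neutrophils into tissue were counted from lists chosen with earlier results of these data known. Of 33 other genes of neutrophils, 32 were tested, and 6 were higher after 1 dose of exoCDN2 than with PBS, 3 after CDN2 (20 µg) and 1 after CDN2 (100 µg), with none lower, beside 2.62%, 3.14% and 2.44% of all genes called in those comparisons; the 1 of 32 with CDN2 (100 µg) is near that background. In the exoCDN2 tumors these were led by Il1b (5.43 ± 0.84, edgeR adjusted p = 0.0034), the cytokine interleukin-1β, Slfn4 (5.34 ± 0.88, edgeR adjusted p = 0.0049) and Cxcr2 (6.36 ± 1.14, edgeR adjusted p = 0.0086), the main neutrophil chemokine receptor. Against 2 doses of PBS, 29 were over the threshold with CDN2 (20 µg) and 25 with exoCDN2, beside 30.6% and 11.3% of all genes. Both comparisons use tumors in which neutrophil genes had been seen to rise or their controls, so nothing is read from these counts. From 1 to 2 doses of exoCDN2, 7 rose, beside 7.44% of all genes called, led by the leukotriene B4 receptor gene Ltb4r1 (3.78 ± 0.62, edgeR adjusted p = 0.0041) and Itgb2 (1.87 ± 0.33, edgeR adjusted p = 0.0050), the integrin β2 chain that other leukocytes share. Of 10 recruitment signals, 9 were tested; 5 were higher after 1 dose of exoCDN2 than with PBS, 4 after CDN2 (20 µg) and 6 after CDN2 (100 µg). Il6 (7.10 ± 1.12, edgeR adjusted p = 0.0038), Tnf (4.01 ± 0.61, edgeR adjusted p = 0.0030) and the chemokine gene Cxcl1 (6.90 ± 1.12, edgeR adjusted p = 0.0046) led with exoCDN2. The same 3 fell from 1 to 2 doses of exoCDN2, Il6 by 4.85 ± 0.95 (edgeR adjusted p = 0.0082), as did Csf3, the G-CSF gene. The summed recruitment level was 15.1 to 55.5 CPM after 2 doses of exoCDN2, 103 to 108 CPM after 1 dose of it, and 2120.0 and 301 CPM after 2 doses of CDN2 (20 µg). Of 9 genes of neutrophil progenitors and dividing cells, 7 were tested, and only Cebpa was called in the 1-dose exoCDN2 comparison with PBS. Cebpa was lower there, with 1.13 and 1.52 CPM after exoCDN2 against 6.95 and 10.3 CPM after PBS. It was also called lower than with EVs (3.59 and 7.56 CPM).

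Markers of other cells moved beside the neutrophil genes at 2 doses of CDN2 (20 µg), and their part in these values was not tested. In the comparison with 2 doses of PBS, 30.6% of all genes were called. There 8 of 10 macrophage and monocyte markers were higher and 1 lower, with a summed level of 597 to 988 CPM against 180.0 to 204 CPM. The exoCDN2 tumors at 2 doses had 546 to 834 CPM of the same markers, and those at 1 dose 229 to 230.0 CPM against 336 to 439 CPM with PBS, where 0 of 10 passed. Melanoma markers summed to 6990 to 12700 CPM after 2 doses of CDN2 (20 µg) against 23500 to 24000 CPM with PBS, with 4 of 7 lower. Mast cell and basophil markers, which bear on Hdc, were higher in 4 of 5 tested (21.7 to 51.3 CPM against 4.47 to 6.64 CPM), and after 1 dose of exoCDN2 0 of 5 were (5.52 to 6.93 CPM against 1.82 to 4.60 CPM with PBS). After 1 dose of CDN2 (100 µg), where Hdc was also called, all 5 were above both PBS tumors (10.6 to 10.9 CPM in sum) and Cpa3, a mast cell protease, rose by 2.41 ± 0.43 (edgeR adjusted p = 0.011), while 0 of 5 passed after CDN2 (20 µg) (4.49 to 7.62 CPM). The part of these cells in the Hdc values was not tested. Prss34, a basophil protease, was at 0 in the 1-dose exoCDN2 and PBS tumors, and Mcpt8 had at most 2 counts there. Erythroid genes were higher in 5 of 5 tested after 1 dose of either amount of free CDN2, beside 3.14% (20 µg) and 2.44% (100 µg) of all genes. Their sums were 1280.0 to 2910.0 CPM with 20 µg and up to 1260.0 CPM with 100 µg, against 144 to 190.0 CPM with PBS. After 1 dose of exoCDN2, 0 of 5 were higher (326 to 462 CPM), beside 2.62% of all genes. Against 2 doses of PBS, 4 of 6 T cell, 3 of 5 fibroblast and 1 of 9 keratinocyte markers were also higher after CDN2 (20 µg). Lower were 2 of 6 dendritic cell markers and 1 of 4 endothelial ones, while 0 of 2 tested eosinophil and 0 of 2 tested B cell markers were over the threshold. The shares of keratinocyte, dendritic and endothelial markers are near or below the 30.6% of all genes, so nothing is read from them.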

How the data were processed

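RNA sequencing of 18 whole tumors was analysed from 1 table of the series. The authors mapped quality-filtered reads with OSA (OmicSoft ArraySuite) on GRCm38. They then quantified Ensembl R88 genes by RSEM, and the expected counts it gave were deposited without normalization. Whether counting used strand is not given in the sources used here. Estimated counts divide reads shared by similar genes, which makes paralogs uncertain. Symbols, positions and exon lengths came from GENCODE M21 (GRCm38), which named 50376 of 50600 genes.

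Counts were rounded and fitted with edgeR 4.0.16 (R 4.3.3) by glmQLFit and glmQLFTest with TMM factors. Genes were kept by filterByExpr (minimum count 10, minimum total 15). The main fit held 16 tumors in 8 groups (16927 genes, 8 residual degrees of freedom), and a fit of 18 tumors gave the 2 comparisons with the group of no labelled amount. As in the study's methods, calls needed a ratio above 2 and an adjusted p below 0.05. The 15 comparisons comprised 9 that were tested and 6 that share tumors with the choice of genes and were described. An exact permutation test of 2 against 2 tumors cannot go below 0.333 (two-sided) and was not used. The fit was tested on simulated data.

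The 38 genes, the other lists and the tests were chosen with earlier results of these data known. By the rule for named genes, 21 of the 38 were given tumor by tumor, low counts as ranges, full statistics went to at most 6 called genes per direction and comparison, and at most 3 genes per direction were named from each other list; further genes named for a low or high value were chosen after their values were seen. Alternatives were DESeq2 1.42.0, RLE factors, no low-count filter, fits of the compared groups alone, of all tumors or with pooled PBS tumors, a replicate block, and leaving out each tumor in turn.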

Additional observations from a re-analysis of the deposited data

Results flagged for a closer look

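Several genes differed in one direction after 1 dose and in the other after 2 doses, with no overlap between the tumors compared at either time. None of these differences between doses was tested, the 2-dose values come from tumors that led to the choice of the genes, and with 2 tumors a group a lack of overlap is frequent. The share of all genes with such a reversal is not given here, so the number of genes is not read as a result. The values below are log2 fold changes after 2 doses minus those after 1 dose.

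Between exoCDN2 and CDN2 (20 µg), 14 genes were higher with exoCDN2 after 1 dose and lower after 2 doses. The value was -5.46 for S100a8 and -5.82 for S100a9. Among surface genes it was -4.91 for Trem1, -3.58 for Trem3, -3.40 for Clec4d, -3.41 for Clec4e, -5.75 for Mrgpra2b, -4.06 for Il1r2 and -4.93 for Hcar2. It was -2.54 for Lrg1, -6.02 for Chil1, -4.15 for Hdc, -3.96 for Mmp9 and -3.67 for Cebpe.

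Against PBS, Stfa1 was lower with exoCDN2 after 1 dose and higher after 2 doses (value 9.23). With CDN2 (20 µg) the same held for Stfa1 (11.27), Stfa2 (13.68) and Cebpe (5.12). The Stfa1 and Stfa2 values are fitted values in which the 2-dose PBS tumors had 0 counts, so their size depends on the model.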

How the results depend on the processing

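Counts of called genes depended on the setting more than directions did, and no called value changed sign. Causes were not tested. The shares of all genes called under these other settings are not given here, so the counts below are not read against a background. For exoCDN2 against PBS at 1 dose, 7 genes became 14 with DESeq2, 16 with PBS tumors pooled over doses, 26 with no filter on low counts and 22 with only the groups compared, and 0 to 5 with 1 tumor left out. For CDN2 (20 µg) against PBS at 1 dose, 3 became 5, 9, 21 and 5 in that order (0 to 3 with 1 tumor left out), and for CDN2 (100 µg) 2 became 7, 6, 17 and 13 (0 to 1). For exoCDN2 against EVs, 3 became 9 with DESeq2, 22 with no filter and 12 with only the groups compared (0 to 2). With no filter, EVs against PBS gave 6, and exoCDN2 against CDN2 (20 µg) at 1 dose gave 8 and, with only the groups compared, 1. From 1 to 2 doses of exoCDN2, 0 became 3 with DESeq2, 11 with no filter and 6 with only the groups compared (0 to 1). For PBS at 2 doses against 1, 0 became 2, 9 and 2 in that order, and for CDN2 of no labelled amount against PBS 0 became 3, 14 and 3. With only the groups compared, exoCDN2 against CDN2 (20 µg) at 2 doses gave 0 in place of 26 (6 to 33 with 1 tumor left out), and CDN2 (20 µg) at 2 doses against 1 gave 14 in place of 30 (18 to 34). With 1 tumor left out, CDN2 (20 µg) against PBS at 2 doses gave 27 to 35, exoCDN2 against PBS at 2 doses 8 to 20, and CDN2 of no labelled amount against exoCDN2 0 to 18.

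Replicate numbers did not pair tumors across groups (mean correlation of deviations 0.016 over 36 pairs of groups, from -0.177 to 0.304). A fit with the replicate number as a block gave 8 genes for exoCDN2 against PBS at 1 dose, 12 in place of 18 for CDN2 of no labelled amount against exoCDN2, and 1 in place of 0 both for PBS at 2 doses against 1 and for CDN2 of no labelled amount against PBS. Counting only genes detected outside CDN2 (20 µg) at 2 doses, an alternative chosen after seeing the data, left 27 of 35 genes in that group's comparison with PBS and the same counts in all 9 tested comparisons. It left 20 lower genes for exoCDN2 against CDN2 (20 µg) at 2 doses, and 23 higher genes for CDN2 (20 µg) at 2 doses against 1. Depth limits Elane, Mpo, Ctsg, Ly6g, Cxcr1 and Camp, whose counts outside CDN2 (20 µg) at 2 doses were 7 or fewer in each tumor.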
